A study of Mus musculus with 6 samples.

Results

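Broad open regions were stretches of chromatin in cultured mouse adipocytes where a single ATAC-seq peak ran over 2000 bp or more. Intervals of the 6 deposited peak lists were merged wherever they overlapped by at least 1 bp, and a merged region was kept when all 6 lists had a peak in it and at least 3 lists held a single interval of 2000 bp or more there. The regions were thus chosen by interval width, a measured value, and their widths are given as a description without a test. This left 5 of 194610 merged regions, or 5 of the 58720 regions with a peak in all 6 lists. Each is named here by the gene at which it lies: Gm26917, Sp110, Tbx18, Elf2 and Ppp2r3d.

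The stromal vascular fraction, the non-adipocyte cells of a fat depot with its adipocyte progenitors, came from wild-type male C57BL/6J mice aged 3 to 4 weeks and was differentiated for 7 days. Beige and white adipocytes came from the inguinal (subcutaneous) depot and brown adipocytes from brown adipose tissue, with 2 libraries each. The beige and brown media held 5 μM dexamethasone, 0.5 mM IBMX, 1 nM T3, 1 μM rosiglitazone and insulin, and the white medium held 1 μM dexamethasone, 0.5 mM IBMX and insulin, with neither T3 nor rosiglitazone. In the paper's methods these are induction media. They were later replaced by insulin, T3 and rosiglitazone for beige and by insulin alone for white. Insulin doses are not given here. Beige against white thus differs in medium within 1 depot, and brown against beige differs in depot within 1 medium. The brown libraries are not described in the paper, and their labels do not say whether they came from separate cultures. The paper's read counts leave them out too, so depot, preparation and depth cannot be told apart between brown and beige. Differentiated stromal vascular cultures can keep cells that are not adipocytes. Of the adipocyte markers Adipoq, Pparg, Fabp4, Plin1, Lpl, Cidec, Lipe and Cebpa, 8 of 8 had a transcription start inside a region with a peak in all 6 lists, as did 7 of 8 progenitor, 2 of 6 macrophage, 3 of 6 endothelial, 3 of 4 smooth muscle and 2 of 4 mesothelial markers, and none of these genes had its start in a broad region. Over all protein-coding genes 12797 of 21827 had a start in such a region, so that 2 of 6, 3 of 6 and 2 of 4 lie near or below that share.

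In ATAC-seq a transposase cuts DNA that is not wrapped in nucleosomes, so a peak marks open chromatin. Most open sites are about as long as a nucleosome-free gap between neighbouring nucleosomes. Promoters rich in CpG dinucleotides (CpG islands) lack DNA methylation in most tissues and can be accessible over longer stretches, with transcription starting at many positions. A wide interval can also arise where reads from many copies of a repeated sequence pile up on the copy that the assembly holds.

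To show what these regions are made of, stretches of each are printed 5′ to 3′ on the strand of the named gene, in mm10, with each CpG in capitals. The first pair are the bases directly before the annotated starts of Elf2 and Tbx18, from the RefSeq promoter table on GRCm38.p6. Elf2 (chr3:51340664-51340894, minus strand, 231 bases) held 31 CpGs at 79.2% GC, and Tbx18 (chr9:87731261-87731510, minus strand, 250 bases) held 15 CpGs at 54.0% GC.

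Elf2 promoter: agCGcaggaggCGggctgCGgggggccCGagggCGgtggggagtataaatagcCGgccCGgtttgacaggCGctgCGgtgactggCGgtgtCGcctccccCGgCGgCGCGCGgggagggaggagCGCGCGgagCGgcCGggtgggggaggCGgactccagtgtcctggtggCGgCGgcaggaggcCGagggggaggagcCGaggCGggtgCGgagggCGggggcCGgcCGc
Tbx18 promoter: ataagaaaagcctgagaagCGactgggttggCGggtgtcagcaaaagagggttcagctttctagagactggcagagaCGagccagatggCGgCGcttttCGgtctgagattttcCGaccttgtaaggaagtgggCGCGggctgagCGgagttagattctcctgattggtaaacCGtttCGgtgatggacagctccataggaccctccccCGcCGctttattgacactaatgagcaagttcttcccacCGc

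The next stretches run 75 bases to each side of summits that all 6 lists shared. They lie 671 bp before the start of Elf2 (chr3:51341259-51341409, minus strand), in the first intron of Tbx18 1114 bp after its start (chr9:87730071-87730221, minus strand), over the start of Ppp2r3d (chr9:124424062-124424212, minus strand), in Gm26917 (chr17:39844113-39844263, plus strand) and in the body of Sp110 (chr1:85593016-85593166, minus strand). They held 27, 16, 17, 14 and 2 CpGs in the same order. Sp110 had the fewest.

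Elf2 upstream summit: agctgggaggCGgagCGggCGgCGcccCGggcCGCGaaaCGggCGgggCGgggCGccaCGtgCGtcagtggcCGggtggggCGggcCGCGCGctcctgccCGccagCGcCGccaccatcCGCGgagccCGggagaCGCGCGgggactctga
Tbx18 intronic summit: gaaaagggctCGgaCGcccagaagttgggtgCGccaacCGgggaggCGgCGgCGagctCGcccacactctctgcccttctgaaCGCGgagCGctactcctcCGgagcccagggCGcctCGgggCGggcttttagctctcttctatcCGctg
Ppp2r3d start site summit: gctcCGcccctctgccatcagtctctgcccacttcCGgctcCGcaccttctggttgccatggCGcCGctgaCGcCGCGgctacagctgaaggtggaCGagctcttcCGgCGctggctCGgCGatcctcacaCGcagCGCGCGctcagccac
Gm26917 summit: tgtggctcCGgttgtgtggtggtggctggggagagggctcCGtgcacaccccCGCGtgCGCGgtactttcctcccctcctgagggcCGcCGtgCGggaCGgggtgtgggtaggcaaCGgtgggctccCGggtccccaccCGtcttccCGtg
Sp110 summit: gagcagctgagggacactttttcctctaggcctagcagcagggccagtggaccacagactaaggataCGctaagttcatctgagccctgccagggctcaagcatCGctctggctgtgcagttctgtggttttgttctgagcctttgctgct

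The peak lists hold no read counts, so depth cannot be read from them. The lists held 109143 to 127490 intervals with a median width of 246 to 267 bp, and 99% of intervals were shorter than 1104 to 1298 bp depending on the list. Intervals of 2000 bp or more numbered 8 and 16 in beige replicates 1 and 2, 4 and 13 in white, and 3 and 4 in brown, which is 0.00263% to 0.0126% of a list. Of these 48 intervals, 20 lay in the 5 broad regions. The other 28 lay in 24 merged regions outside the rule.

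The Gm26917 region (chr17:39843134-39846735, 3602 bp after merging) carried the widest interval of every list. Gm26917 is annotated as a long intergenic non-coding RNA (ENSMUSG00000097971.3, chr17:39843013-39846341, plus strand), and 3208 bp of the region lay in its exons, with an annotated start at 39845074 inside. RefSeq places Rn18s-rs5, a pseudogene related to the 18S ribosomal RNA, at chr17:39846354-39848202, and the last 382 bp of the region overlapped it. The interval was 3586 bp in beige 1, 3590 bp in beige 2, 3597 bp in white 1, 3584 bp in white 2, 3586 bp in brown 1 and 3367 bp in brown 2. Only brown 2 was split, by a gap of 3 bp, and the covered length (the summed intervals of a library in the region) there was 3554 bp. The covered length was 3588 ± 2.83 bp in beige, 3590.5 ± 9.19 bp in white and 3570 ± 22.6 bp in brown (SD, n = 2 libraries each), and the groups overlapped.

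At Gm26917 a low fold met a very high significance. The fold enrichment of its strongest summit, the pileup relative to the background that MACS2 estimates around it, was 2.85, 2.76, 2.72, 2.56, 2.81 and 2.93 in the order beige 1, beige 2, white 1, white 2, brown 1 and brown 2. Between 5.52% and 9.71% of the intervals of a list had a lower fold. The −log10 q of the same summits was 635, 663, 480, 329, 465 and 585, and more than 99.99% of intervals lay below it in every list. No other broad region combined a fold this low with a −log10 q this high, as the plot of fold against −log10 q shows.

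**Figure D1:**
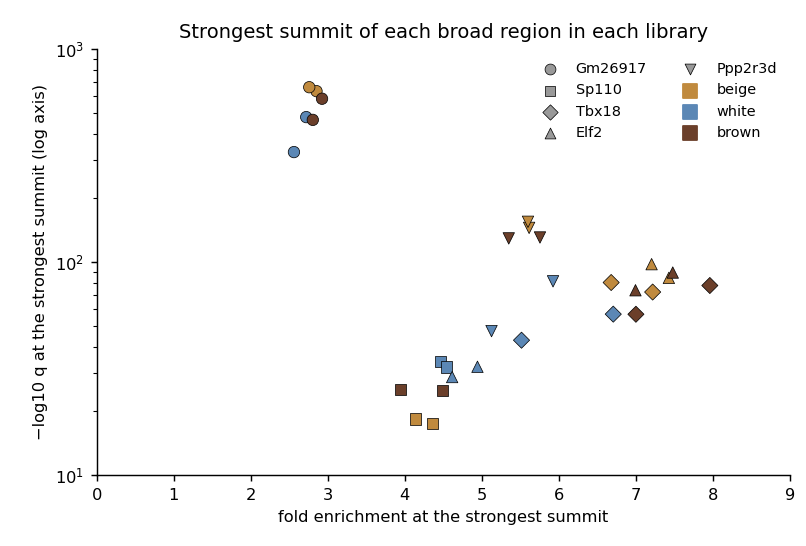
Fold enrichment (x axis) against −log10 q (y axis, log scale) at the strongest summit of each broad region in each library, with the symbol for the region and the colour for the group. The 6 Gm26917 points sit at folds of 2.56 to 2.93 and −log10 q of 329 to 663, above all others, and the Sp110 points have the lowest −log10 q of the 5 regions in all beige and brown libraries.

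The Sp110 region (chr1:85591061-85593443, 2383 bp) lay inside a gene body and held no annotated start. Sp110 (ENSMUSG00000070034.13, chr1:85576899-85598817, minus strand) encodes a nuclear body protein induced by interferon. Of the 2383 bp, 2116 bp were intronic and 267 bp coding. The widest interval was 2156 bp in beige 1, 1191 bp in beige 2, 2383 bp in white 1, 2337 bp in white 2, 1587 bp in brown 1 and 2335 bp in brown 2. Both white libraries and brown 2 had 1 unbroken interval, and the other 3 libraries were split by gaps of 11 to 176 bp. The fold of the strongest summit was 3.94 to 4.54 and its −log10 q was 17.5 to 34.1, which 59.6% to 86.2% of the intervals of the same list did not reach.

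The 3 broad regions at protein-coding starts belonged to Tbx18, Elf2 and Ppp2r3d. Tbx18 encodes a T-box transcription factor known from the epicardium, the sinus node and mural cells of vessels. Its region (chr9:87729495-87731554, 2060 bp) held the start of Tbx18 (ENSMUSG00000032419.8, minus strand) at 87731260, with 294 bp before it and 1765 bp after it. The part inside the gene had 897 bp of exon, of which 481 bp were coding and 416 bp untranslated, and 869 bp of intron. The whole region also lay in an exon of D030062O11Rik, an uncharacterised transcript on the plus strand. A single unbroken interval of 1967 bp in beige 1, 2001 bp in beige 2, 2053 bp in white 1, 2036 bp in white 2, 1942 bp in brown 1 and 1958 bp in brown 2 covered it. Tbx18 was the only one of the 5 regions that was unbroken in every library, and its widest interval had the smallest spread over the libraries (SD 44.8 bp, n = 6). By covered length the spread was smallest at Gm26917 (SD 14.9 bp, n = 6).

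Elf2 encodes a transcription factor of the ETS family. Its region (chr3:51339775-51342134, 2360 bp) held Elf2 starts (ENSMUSG00000037174.18, minus strand) at 51340644 and 51340663, and 1471 bp of it lay before the outer start. Inside the gene, 250 bp were untranslated exon and 639 bp intron, with no coding base. The widest interval was 2146 bp in beige 1, 1572 bp in beige 2, 2023 bp in white 1, 2021 bp in white 2, 2096 bp in brown 1 and 1459 bp in brown 2. The 2 libraries below 2000 bp were split, beige 2 by a gap of 71 bp and brown 2 by gaps of 23 and 126 bp. Of the 3 regions at protein-coding starts, Elf2 alone had most of its length upstream.

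A second Elf2 promoter, singled out after its values were seen, lay 61942 bp away in the gene (chr3:51275944-51277832) and held 4 further Elf2 starts. Its widest interval was 1824 and 1889 bp in beige, 1136 and 1319 bp in white and 1745 and 1853 bp in brown. It therefore fell below 2000 bp in all 6 libraries.

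Ppp2r3d encodes a regulatory subunit of protein phosphatase 2A. Its region (chr9:124422821-124424893, 2073 bp) held the start of Ppp2r3d (ENSMUSG00000093803.3, minus strand) at 124424154, with 739 bp before and 1333 bp after it, 251 bp of them coding and 1083 bp intronic. That start is from GENCODE, and the RefSeq promoter table names no Ppp2r3d start in the region. It lists starts of LOC108167694 (minus strand, 124423400) and 4930526I15Rik (plus strand, 124423787), so starts on both strands lay in the same region. The widest interval was 2025 bp in beige 1, 2028 bp in beige 2, 1615 bp in white 1, 1654 bp in white 2, 2063 bp in brown 1 and 1510 bp in brown 2. Both beige libraries and brown 1 were unbroken, and the splits in the others measured 83, 22 and 3 bp. Another region with a peak in all 6 lists began 7 bp away, while for the other broad regions the nearest lay 788 bp (Gm26917) to 7385 bp (Tbx18) away.

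At the 3 promoters the strongest summits stood higher over their surroundings than at Gm26917 and Sp110. The fold at Tbx18 was 7.22 and 6.68 in beige, 6.71 and 5.52 in white and 7.96 and 7.00 in brown, with a −log10 q of 72.3, 80.2, 56.95, 43.0, 77.6 and 56.9. The fold at Elf2 was 7.43 and 7.20 in beige, 4.94 and 4.61 in white and 7.48 and 7.00 in brown, with a −log10 q of 84.3, 97.8, 32.2, 28.9, 89.3 and 73.7. Both white values lay below the other 4, but each is relative to its own library, so the size is not read across libraries. Within its own list the Elf2 fold exceeded that of 72.4% and 70.0% of intervals in beige, 63.6% and 62.2% in white and 72.9% and 76.3% in brown. The fold at Ppp2r3d was 5.61 and 5.60 in beige, 5.92 and 5.13 in white and 5.35 and 5.76 in brown, with a −log10 q of 145, 155, 81.2, 47.4, 129 and 130.5. None of the 3 was among the top peaks of a list: between 82.7% and 96.7% of intervals had a lower −log10 q. By the width of their widest interval, which the rule used, they ranked between 2 and 278 in a list.

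**Figure D2:**
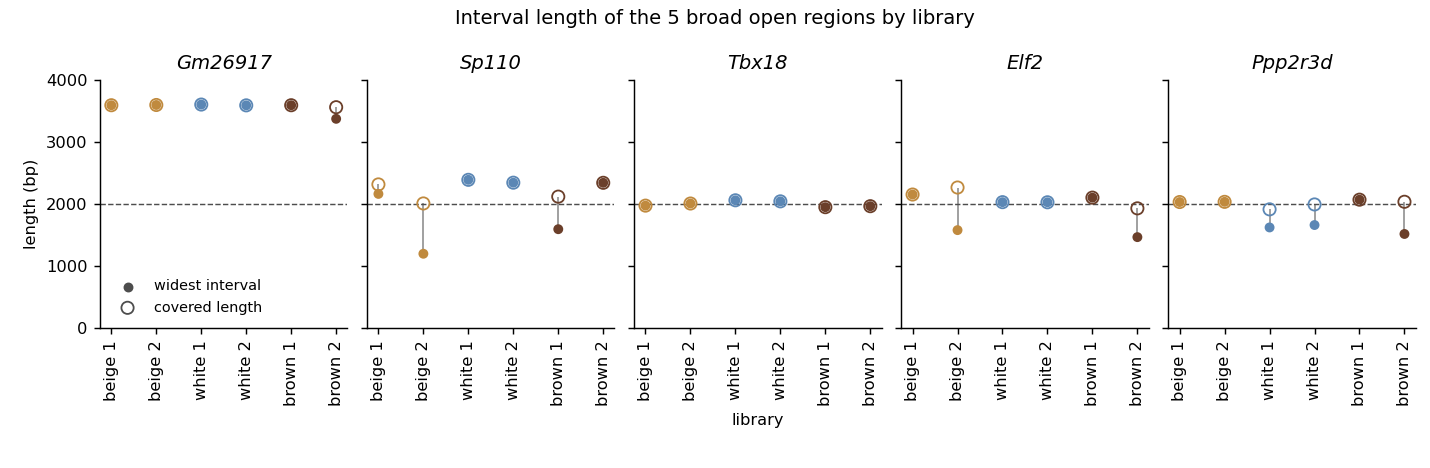
Length in bp (y axis) of the widest interval (filled) and the covered length (open) in each of the 6 libraries (x axis) for the 5 broad regions, with the 2000 bp threshold dashed. Gm26917 stays between 3367 and 3597 bp, and Tbx18 runs along the threshold with 1942 to 2053 bp.

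The rule asked for 2000 bp in 3 lists, and only Gm26917 reached it in all 6. Elf2 and Sp110 reached it in 4 lists, and Tbx18 and Ppp2r3d in 3. Of the 30 pairs of region and library, 20 had an interval of 2000 bp or more, 24 had a covered length of 2000 bp or more, and 21 were unbroken. In the 9 split pairs the gaps measured 3 to 176 bp.

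Within the broad regions the lists placed 4 to 12 summits each. Summits within 50 bp of the next were joined into clusters, and a cluster was counted as shared when all 6 lists had a summit in it. Gm26917 had 7 shared clusters of 14, Elf2 had 4 of 10, Tbx18 had 3 of 9, Ppp2r3d had 3 of 8 and Sp110 had 2 of 14. In Tbx18 the strongest summit lay between 87731355 and 87731389 in all 6 libraries, a spread of 34 bp, and the cluster centred 103 bp before the start. Its 2 other shared clusters lay 175 bp and 1114 bp after the start, the latter in the intron printed above.

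In Ppp2r3d the strongest summit sat at 124423752 in white 1 and between 124424123 and 124424152 in the other libraries, and the latter cluster centred 17 bp after the start. In Elf2 it fell on either of a pair of clusters, 60 bp before the outer start (beige 2, white 1, white 2 and brown 2) or 671 bp before it (beige 1 and brown 1). The mean fold of those clusters over the 6 libraries was 6.18 and 6.05. In Sp110 the strongest summit sat at 85591348 in brown 2 and between 85592875 and 85593264 in the other libraries. Its spread of 1916 bp was the largest of the 5. The promoter regions had shared summits near the start, and the wide spread at Sp110 came from brown 2 alone.

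**Figure D3:**
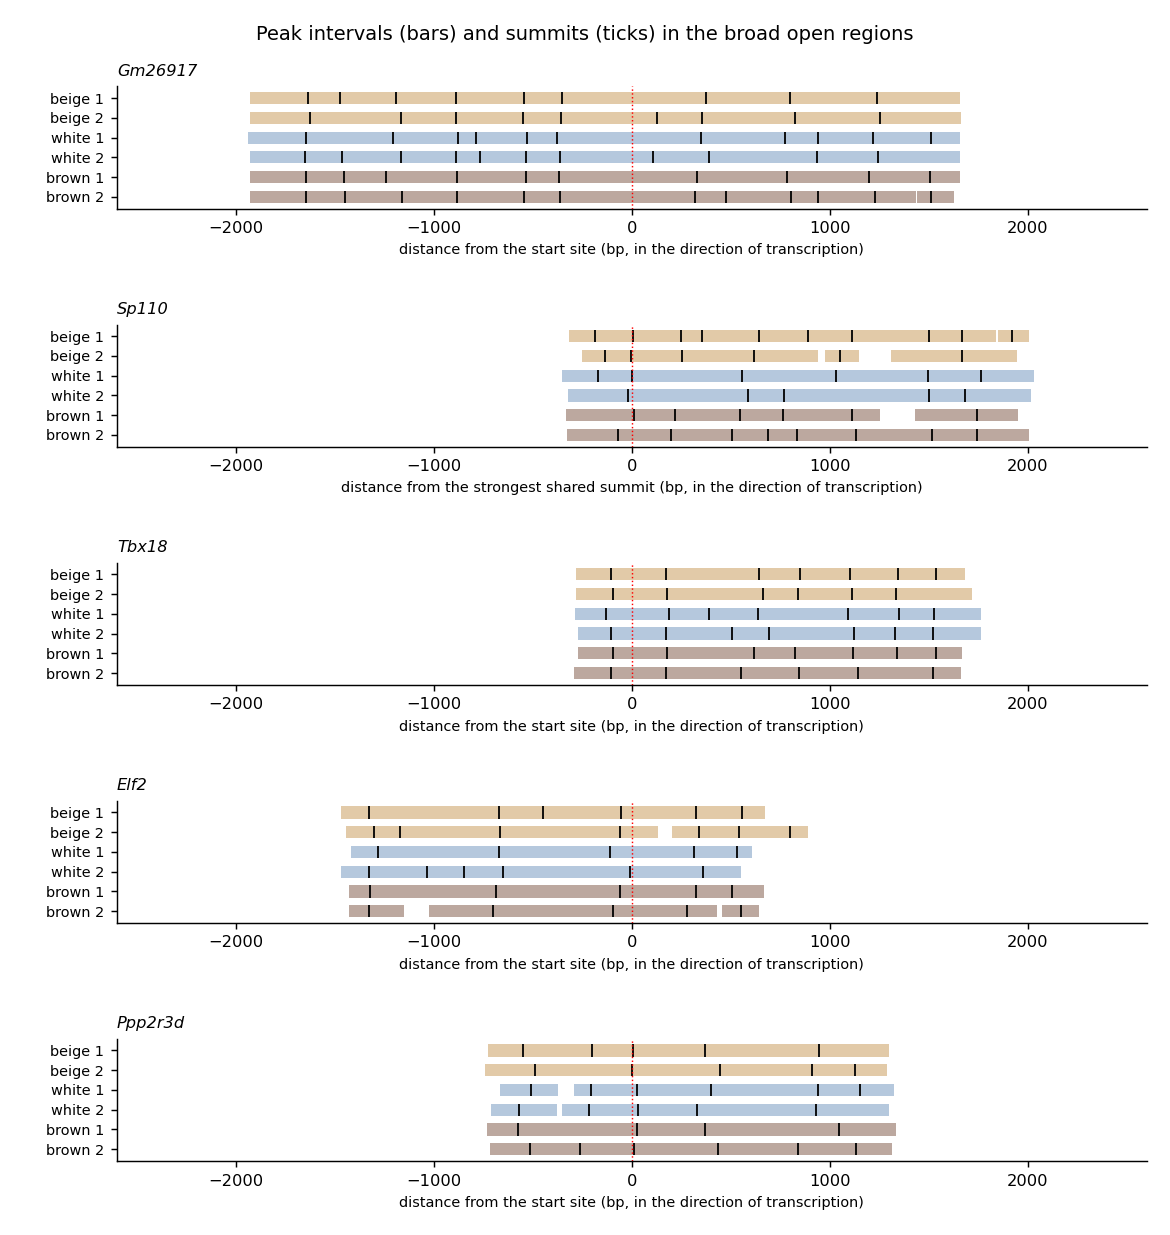
Peak intervals (bars, coloured by group) and summits (black ticks) of each library in the 5 broad regions, by distance in bp (x axis) along the direction of transcription from the outermost annotated start inside the region (dotted line), or from the strongest shared summit for Sp110, which holds no start. Gm26917 begins at 39843013, before its region, so its bars left of the dotted line also lie in the gene. The Tbx18 bars are unbroken and begin within 294 bp before the start, and the Sp110 bars are split in 3 libraries.

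Sequence set Sp110 apart from the other 4 regions. In a fixed window of 2000 bp around the middle of each region, the ratio of observed to expected CpG was 0.992 in Elf2, 0.961 in Gm26917, 0.931 in Ppp2r3d, 0.846 in Tbx18 and 0.226 in Sp110. These windows held 257, 243, 191, 183 and 27 CpGs at a GC content of 72.7%, 71.2%, 64.1%, 66.1% and 48.9%. By the criteria used here for a CpG island (GC of at least 50% and a ratio of at least 0.6) 4 of 5 broad regions qualified, beside 12.9% of the regions with a peak in all 6 lists. A protein-coding start lay in 3 of 5, beside 21.2%. With 5 regions these shares are loose, with 95% Clopper-Pearson intervals of 28.4% to 99.5% and 14.7% to 94.7% that cover counting error only. The 5 regions are all that passed the rule and not a random sample, so the intervals are given for scale.

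Repeated sequence was then counted as the share of 31-base words of a region that occur elsewhere in the C57BL/6J assembly. No word of Tbx18, Elf2 or Ppp2r3d (2030, 2330 and 2043 words) occurred elsewhere. In Sp110 1997 of 2353 words did, or 84.9%, with a median of 6 copies. Sp110 was 1 of 5 broad regions with at least 50% of its words repeated, beside 0.7% of the regions with a peak in all 6 lists. Of 98 Sp110 words with 2 to 100 copies that were placed, taken at every 20th such word, 431 of 440 other copies lay on unlocalized or unplaced contigs, 364 of them on contigs assigned to chromosome 1. In Gm26917 168 of 3572 words (4.70%) were repeated, with at most 3 copies. Ribosomal DNA is known to stand in long tandem arrays that genome assemblies leave out, so a count in the assembly gives only a lower bound for it. The part of copy number in the widths of Gm26917 and Sp110 was not tested.

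The broad regions were set beside the regions next in width, those where the third widest of the 6 intervals measured 1500 to under 2000 bp. Of these 158 regions 147 held a protein-coding start, 146 met the CpG island criteria (92.4%), and the median ratio of observed to expected CpG was 0.815. The median over the 5 broad regions was 0.931. Where the third widest interval measured 1000 to under 1500 bp, in 3121 regions, 86.4% held a protein-coding start and 73.7% met the island criteria. Elf2 and Ppp2r3d lay above the upper quartile of the CpG ratio in the 1500 to under 2000 bp class (0.892), and Tbx18 lay between its median and that quartile. Sp110 lay below the lower quartile of 0.733, and no region of that class had at least 50% of its words repeated.

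**Figure D4:**
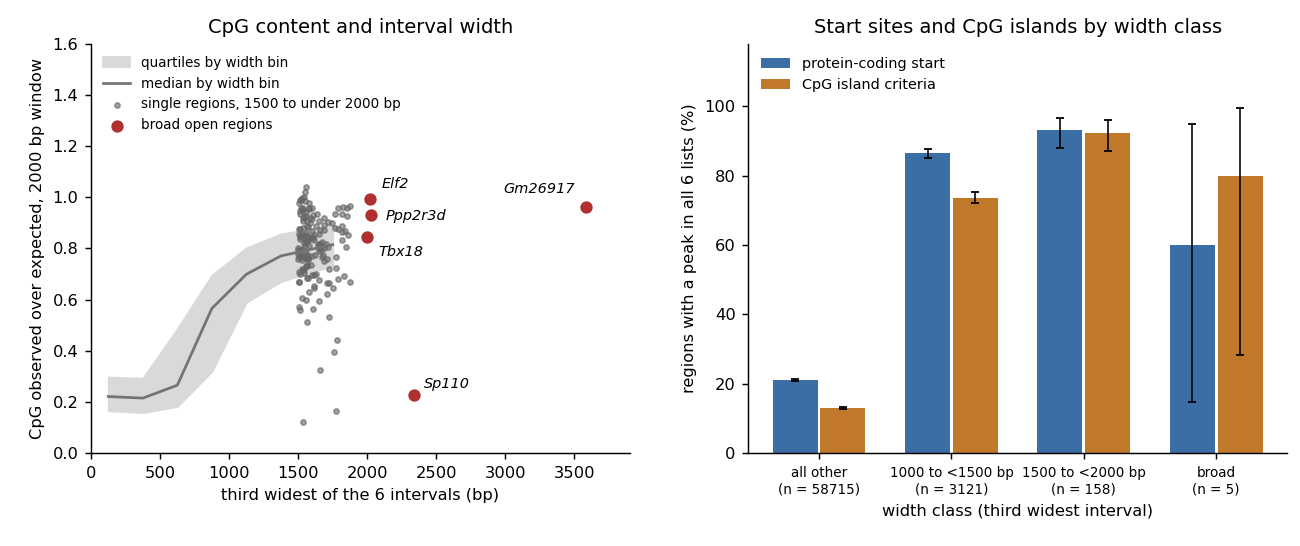
Left, ratio of observed to expected CpG in a 2000 bp window (y axis) against the third widest of the 6 intervals in bp (x axis), with the broad regions in red, the 158 regions of 1500 to under 2000 bp in grey and the median and quartiles of all regions with a peak in all 6 lists by width bin. Right, percent of regions with a protein-coding start or meeting the CpG island criteria in each width class, with 95% Clopper-Pearson intervals as bars, where "all other" holds every region with a peak in all 6 lists that is not broad. The median ratio is 0.221 in the narrowest bin and 0.815 at 1500 to under 2000 bp, and 4 of 5 broad regions lie above 0.8.

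The windows were searched on both strands for short consensus letters, where a match is a description and not a bound site, and matches of different motifs may overlap. The GC box of SP and KLF factors (GGGCGG) matched 21 times in Elf2, 6 times in Gm26917, 5 times in Tbx18, 4 times in Ppp2r3d and not in Sp110. It was present in 45.6% of all windows of regions with a peak in all 6 lists and in 97.5% of the 158 windows of the next class, where the median was 7 matches. Elf2 thus had 3 times that median, and the other CpG-rich broad regions had fewer than the median.

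The AP-1 consensus (TGANTCA), which 55.5% of all windows and 24.1% of those of the next class held, matched in none of the 5. The consensus of ETS factors with a CpG (CCGGAAG; 15.2% of all windows and 36.1% of the next class) matched 4 times in Ppp2r3d, 2 of them in the printed start site stretch, and once in Gm26917, but not in the window of the ETS gene Elf2. Ppp2r3d also held single matches to the NRF1 consensus (0.846% of all windows and 1.27% of the next class), the cAMP response element (TGACGTCA; 2.86% and 8.86%) and the CACGTG E-box (27.2% and 39.2%). Elf2 held 1 E-box, which lies in the printed upstream stretch, and 1 CTCF consensus (19.3% and 17.1%). The CCAAT box of NFY (91.9% and 77.8%) matched 7 times in Sp110, 2 times each in Elf2 and Ppp2r3d, once in Tbx18 and not in Gm26917. TATAAA (64.8% of all windows and 27.8% of the next class) matched once in Sp110 and once in Elf2, in the printed promoter, GGAATG of TEAD factors (68.8% and 56.3%) 2 times in each of these, and TTGCGCAA of C/EBP factors (0.562% and 1.27%) in none.

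Covered length is set side by side for the groups as a description, because the rule used the same widths: the covered length equals the widest interval in the 21 unbroken pairs, Ppp2r3d passed the rule through beige 1, beige 2 and brown 1, and Tbx18 through beige 2, white 1 and white 2. With 2 libraries against 2 an exact permutation test allows no two-sided p below 0.3333, so no test was made, and a region is counted where both libraries of one group lay above both of the other. Both beige libraries exceeded both white in 2 of 5 broad regions, Elf2 (2146 and 2259 bp against 2023 and 2021 bp) and Ppp2r3d (2025 and 2028 bp against 1907 and 1986 bp), beside 37.9% of all regions with a peak in all 6 lists. Both white exceeded both beige in 2 of 5, Tbx18 (2053 and 2036 bp against 1967 and 2001 bp) and Sp110 (2383 and 2337 bp against 2309 and 2002 bp), beside 7.64%. Gm26917 overlapped. In the next width class the same counts were 41 and 19 of 158. The shares over all regions are printed for scale, and nothing is read from them about the broad regions.

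Between the depots, both beige exceeded both brown in Elf2 (brown 2096 and 1923 bp) and Tbx18 (brown 1942 and 1958 bp), 2 of 5 beside 42.2% of all regions, and both brown exceeded both beige only in Ppp2r3d (2063 and 2029 bp, the shorter by 1 bp over the longer beige interval), 1 of 5 beside 6.42%. Between brown and white, both white were longer in Tbx18 and Sp110 (brown 2112 and 2335 bp), 2 of 5 beside 20.4%, and both brown were longer in Ppp2r3d, 1 of 5 beside 19.3%. In the next width class both beige exceeded both brown in 97 of 158 regions (61.4%) and the reverse held in 4, while both white exceeded both brown in 64 (40.5%) and the reverse held in 15 (9.49%). No pair of groups overlapped in Tbx18, in the order white, beige, brown with means of 2044.5 ± 12.02, 1984 ± 24.04 and 1950 ± 11.3 bp (SD, n = 2 libraries each), or in Ppp2r3d, where brown was longest and white shortest by covered length. By the widest single interval brown 2 was the shortest of the 6 libraries at Ppp2r3d (1510 bp), and neither that measure nor joining intervals up to 100 bp apart left a region longer in both brown than in both beige libraries.

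These differences were small beside the regions' length. The largest difference of group means was 204.5 bp in Sp110 (2360 ± 32.5 bp in white against 2155.5 ± 217 bp in beige), and the beige libraries differed there by more than that. In Elf2 beige exceeded white by 180.5 bp (2202.5 ± 79.9 bp against 2022 ± 1.41 bp) and brown by 193 bp (2009.5 ± 122 bp). In Ppp2r3d the means were 2026.5 ± 2.12 bp in beige, 1946.5 ± 55.9 bp in white and 2046 ± 24.04 bp in brown. Intervals of 1000 bp or more numbered 3853 and 5089 in the beige lists, 2152 and 3571 in the white and 2643 and 2149 in the brown, and intervals of 1500 bp or more 268 and 425, 107 and 274, and 122 and 99. Both beige lists held more than every white and brown list at 1000 bp, while at 1500 bp white 2 held more than beige 1. The part of this in the differences was not tested. Fewer cells with an open region and a shorter opening per cell cannot be told apart in bulk lists.

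Of the gene lists looked up, which cover adipocyte regulators and effectors, other cell types, signalling, the clock, transcription factor families, chromatin enzymes and housekeeping complexes, 1 of 23 had a member in a broad region. That list was the T-box genes, with Tbx18 as 1 of 13 (7.69%), beside 3 of all 21827 protein-coding genes (0.0137%). This count rests on 1 gene chosen by width, and nothing is read from it about the family. The count fell to 0 without beige 2, white 1 or white 2, with an equal number of widest intervals per list, at 2500 bp and with all 6 lists required. Of the 13 T-box genes 5 had a start in a region with a peak in all 6 lists, 1 of them in the class of 1000 to under 1500 bp and none at 1500 to under 2000 bp, beside 12797 and 3056 of all 21827 for the first pair of counts. In that wider class 13 of 23 lists had a gene, beside 164 of all protein-coding genes (0.751%). Adipocyte regulators reached it with Pparg, the master regulator of fat cell formation, and Thrb, a thyroid hormone receptor (2 of 35, 5.71%). Adipocyte effectors reached it with Acsl1, which activates long-chain fatty acids (1 of 30, 3.33%). The highest share was that of circadian clock genes (2 of 17, 11.8%). KLF and SP genes (2 of 26, 7.69%) and WNT and NOTCH genes (2 of 29, 6.90%) also exceeded both adipocyte lists. Hox genes (39), macrophage genes (10) and olfactory receptor genes (1091) had none there and none in a broad region. The same held for mitochondrial ribosomal protein genes (78), respiratory chain complex I genes (46) and proteasome subunit genes (39), among other lists. Nothing is read from these counts about the lists.

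The values nearest the threshold were close together. Just inside it, the third widest interval was 2001 bp in Tbx18, 2023 bp in Elf2 and 2025 bp in Ppp2r3d. Just outside it were Egr1 and Phlpp1 at 1873 bp and Zbtb11 at 1857 bp, with no list at 2000 bp. Of the 24 regions outside the rule that had an interval of 2000 bp or more in some list, 22 held a protein-coding start. In 4 of them 2 lists reached 2000 bp, both beige lists at Lamc1 (2081 and 2087 bp), Gas1 (2064 and 2005 bp) and Kansl1l (2086 and 2097 bp), and beige 2 with brown 2 at Nab2 and Nemp1 (2032 and 2003 bp). In the other 20 only 1 list did, which was beige 2 for 9 and white 2 for 9. Brown 2 and beige 1 gave 1 each, white 1 and brown 1 none.

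**Figure D5:**
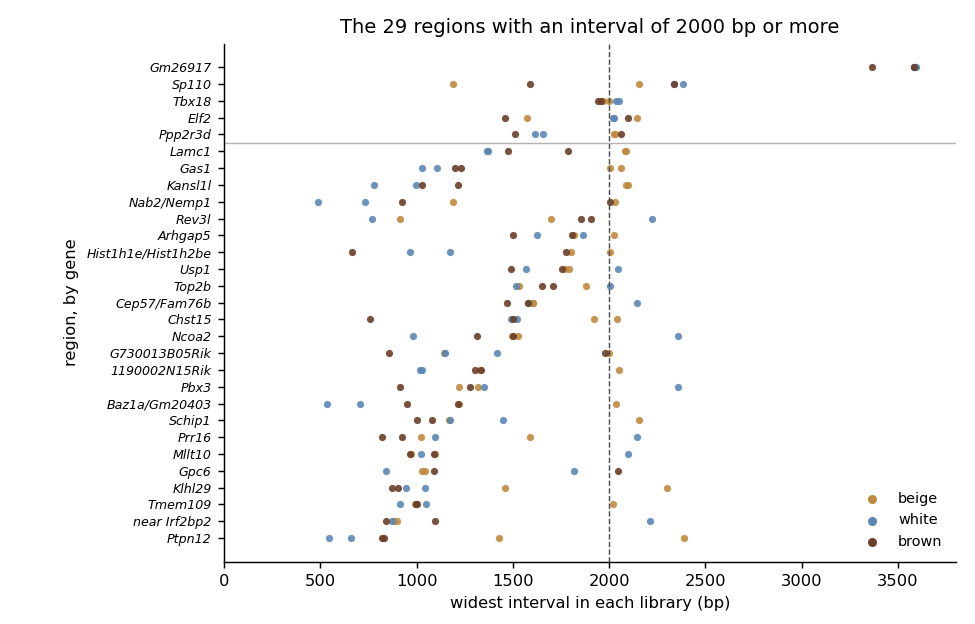
Widest interval in bp (x axis) in each library (points, coloured by group) for the 29 regions with an interval of 2000 bp or more in any list (y axis, by gene), with the 5 broad regions above the grey line and the 2000 bp threshold dashed. At Lamc1, Gas1 and Kansl1l both beige points pass 2000 bp and the white and brown points lie between 777 and 1787 bp.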

How the data were processed

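ATAC-seq peak lists of 6 libraries on mm10 were used. The authors trimmed reads with Trimmomatic, aligned them with BWA and called peaks in each library on its own with MACS2 at a q value under 0.05 (for brown, which the methods do not cover, the submitters' processing notes name BWA and MACS2). The deposited fold is a ratio, pileup at the summit to the background around it. The deposited −log10 q also refers to the summit. Neither is comparable in size between libraries. Where MACS2 joins neighbouring signal depends on depth, so interval width can move with depth, which the lists do not give. The paper's reporting summary lists more mapped reads, and a larger mapped share of reads, for each white than for each beige library. Depth, mapped share and medium therefore cannot be told apart between them. The summary lists no reads for brown, so depth and depot cannot be told apart between brown and beige.

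Each line of a list is 1 summit. Lines with the same interval were counted once, at the highest −log10 q, and width is end minus start. Regions were merged and annotated in Python 3.11.15 (numpy, pandas, scipy, numba) with GENCODE M21 basic starts, the RefSeq promoter table and the GRCm38.p6 sequence. The RefSeq table had 4 starts in 3 of the 5 regions. Merging, word counting and motif search were tested on simulated data. The regions, gene lists and motifs were chosen with earlier results of these data known. Named genes are those with a start in a broad region, those of broad regions without a start, listed genes, the nearest 3 regions to each side of the threshold, and regions whose groups do not overlap. Alternatives were a width of 1500 or 2500 bp, 2 or 6 lists, a stricter q, a 100 bp gap, equal list lengths, leaving out each library, other definitions of promoter, window and length, and, added after seeing the data, leaving out repeated sequence. No comparison across genes was tested. Egr1 and other genes outside the rule are given by width alone.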

Additional observations from a re-analysis of the deposited data

How the results depend on the processing

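Of 104 recomputed values 37 moved, and those are given here. A percentage moved when it left the 95% Clopper-Pearson interval of its main value. That interval was 14.7% to 94.7% for protein-coding starts and 28.4% to 99.5% for islands. A count moved when it changed by a factor above 1.5. A CpG ratio moved when it changed by more than its SD over the 5 regions. These limits are wide. At 1500 bp and with 2 lists required, the shares at starts and meeting the island criteria rose but did not count as moved. At 1500 bp the rule kept 163 regions, of which 43 were longer in both beige than in both white libraries and 5 longer in both brown than in both beige. At 2500 bp, and likewise with all 6 lists required, 1 region remained, Gm26917, so that 0% held a protein-coding start, 100% met the island criteria, 0 were longer in beige than in white, 0 longer in brown than in beige, and 0% of T-box genes were covered. With 2 lists required, 9 regions were kept and 4 were longer in beige than in white. With an equal number of widest intervals per list 2 regions were kept, with 0% at protein-coding starts, a median CpG ratio of 0.593, 0 in either length comparison and 0% of T-box genes. Joining intervals up to 100 bp apart gave 0 regions longer in brown than in beige. The widest single interval in place of covered length gave 1 region longer in beige than in white and 0 longer in brown than in beige. Without the regions that hold repeated words 3 were left, 100% at protein-coding starts and 100% meeting the island criteria.

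Leaving out each library in turn kept 3 to 5 regions, with 33.3% to 60% at protein-coding starts, 66.7% to 80.0% meeting the island criteria, a median CpG ratio of 0.903 to 0.961, 1 to 3 longer in beige than in white, 0 to 1 longer in brown than in beige, and 0% to 7.69% of T-box genes. Without beige 2 only Gm26917, Sp110 and Elf2 were kept. Ppp2r3d was lost without beige 1, beige 2 or brown 1, and Tbx18 without beige 2, white 1 or white 2. Both reached 2000 bp in exactly 3 lists, and the rule still asked for 3 lists when a library was left out. Each of these losses therefore followed from the rule. The share at protein-coding starts fell with these losses, and the share of T-box genes fell to 0% with the loss of Tbx18. The cause of the other moves was not tested. No paired analysis was made, because the sample labels name no animal or culture that libraries share. By choice, no result was tested with 2 libraries a group.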
